A study of Homo sapiens with 6 samples.

Results

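The NDRG family consists of 4 human genes, NDRG1, NDRG2, NDRG3 and NDRG4, and all 4 were found by symbol among the 19395 genes of the count table. Each passed the filter on low counts. The family was chosen by the measured difference of NDRG1 between the groups described here, among the largest decreases of all genes, so the values of the members are given as a description, without a test. Polyadenylated RNA had been sequenced from cells labelled DLD-1, a colorectal adenocarcinoma line, in 3 libraries labelled oeTNFRSF12A and 3 labelled oeControl. The oeTNFRSF12A cells overexpress the TWEAK receptor TNFRSF12A from a doxycycline-induced construct and had received doxycycline at 0.1 µg/mL for 48 h. The oeControl cells are labelled WT and untreated, so the receptor and the drug changed together and cannot be told apart. Whether the controls carry a construct, whether the cells are 1 clone, and whether the replicates came from separate cultures is not given in the labels, and the p-values below measure only the spread between these samples.

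NDRG proteins share an alpha/beta hydrolase fold but lack the residues an enzyme of that class needs for catalysis. The family took its name from N-myc, which represses the founding gene. NDRG1 is a cytoplasmic protein induced by hypoxia, by loss of iron and during differentiation, it is phosphorylated by SGK1 and then GSK3, and it has been described as a suppressor of metastasis in colon and other carcinomas. NDRG2 is abundant in brain and other tissues and has been described as a tumour suppressor. NDRG3 binds lactate, which protects it from degradation through the prolyl hydroxylase EGLN1 and VHL, and it then activates ERK signalling. NDRG4 is expressed mainly in brain and heart, and methylation of its promoter is used as a stool DNA marker of colorectal cancer.

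RefSeq windows before transcript starts were at hand for NDRG2 and NDRG4. They are shown for their CpG sites, because NDRG4 is known for promoter methylation in colorectal cancer; whether these windows lie in the marker region was not examined. For each of these genes, the 250 bases before the start with the most CpG sites are shown (GRCh38.p14, each on its gene's strand, CpG sites in capitals).
NDRG4, chr16:58463465-58463714, plus strand: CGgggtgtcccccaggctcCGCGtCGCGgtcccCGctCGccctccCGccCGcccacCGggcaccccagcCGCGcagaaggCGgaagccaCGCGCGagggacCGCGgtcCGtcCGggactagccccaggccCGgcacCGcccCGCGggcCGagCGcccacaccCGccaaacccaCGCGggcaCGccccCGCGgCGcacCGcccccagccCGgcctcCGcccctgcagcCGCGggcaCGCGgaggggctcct
NDRG2, chr14:21025062-21025311, minus strand: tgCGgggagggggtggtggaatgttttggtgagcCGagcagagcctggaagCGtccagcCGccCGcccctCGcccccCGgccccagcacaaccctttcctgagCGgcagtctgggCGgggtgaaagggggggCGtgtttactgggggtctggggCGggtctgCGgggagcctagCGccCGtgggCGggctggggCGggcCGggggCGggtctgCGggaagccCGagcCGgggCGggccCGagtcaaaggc
The NDRG4 window holds 40 CpG sites, more than 97.8% of 35114 such windows, whose median is 11, and the NDRG2 window holds 23, more than 74.2% of them. These are the richest of several windows per gene, and the others hold 3 to 29 sites for NDRG4 and 4 to 19 for NDRG2. The 9 windows of these genes were also searched on both strands for ACGTG and GCGTG, the core letters that HIF binds, and for CACGTG, the E-box letters that MYC binds and that contain ACGTG. Of the 9, 4 held GCGTG, which 32.2% of all windows hold, but 2 of these are overlapping NDRG2 windows with the same match, so the windows are not separate items. For ACGTG the count was 0 of 9, beside 18.5% of all windows, and for the E-box it was 0 of 9, beside 6.35%.

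The label of the cells was only in part borne out by their transcripts. Of 15 markers of colon epithelium, 11 stayed under 1 CPM (the count scaled to library size) in all 6 libraries, and CDX1 and CEACAM5 had 0 counts. EPCAM had 13 counts in all, CDX2 4 and VIL1 5, whereas KRT8, KRT18, ELF3 and CDH1 were above 1 CPM in every library. The summed level of the list was 431 to 434 CPM in the controls and 394 to 412 CPM in the oeTNFRSF12A libraries. Of 10 kidney tubule markers, 6 reached 1 CPM in every library (summed level 194 to 204 and 176 to 189 CPM), as did 5 of 9 fibroblast markers (5697 to 5997 and 5681 to 5907 CPM, mostly VIM and the collagen genes COL1A1 and COL1A2), 2 of 8 leukocyte markers (7.77 to 9.13 and 9.77 to 12.2 CPM), 2 of 8 markers of neurons and glia (48.0 to 49.7 and 40.6 to 43.4 CPM, mostly MBP) and 0 of 6 endothelial markers (1.27 to 1.78 and 0.701 to 1.09 CPM). DCN, LUM, CD3E, MS4A1, VWF and TEK had 0 counts in every library. The part of these markers in the results below was not tested. Library totals were 18154839 to 18406885 counts. Counts of TNFRSF12A itself were 365 to 423 in the controls against 1133 to 1305 in the overexpressing cells, a log2 fold change of 1.59 (SE 0.06; adjusted p = 4.17e-16, edgeR quasi-likelihood test).

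The genes lie on 4 chromosomes. On GRCh38 with GENCODE release 29, NDRG1 (ENSG00000104419.14) spans 133237171 to 133302022 on the minus strand of chromosome 8, NDRG2 (ENSG00000165795.23) 21016763 to 21070872 on the minus strand of chromosome 14, NDRG3 (ENSG00000101079.20) 36651766 to 36746078 on the minus strand of chromosome 20, and NDRG4 (ENSG00000103034.14) 58462846 to 58513628 on the plus strand of chromosome 16. The longest open reading frames of the members measure 1185, 1116, 1167 and 1176 bp in that order, and any pair is identical at 64.8% to 68.9% of its aligned bases. The longest stretch of transcript that any pair shares letter for letter is 27 bp, between NDRG2 and NDRG4. Of the exons, 236 bp of NDRG2 (3.13%) overlap TPPP2 on the opposite strand, which had 0 counts in every library, 173 bp overlap the antisense lincRNA AL161668.4 and 73 bp hold the microRNA MIR6717, neither of which has a row in the table. NDRG1, NDRG3 and NDRG4 share no exon sequence with another annotated gene.

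NDRG1 transcript was 6.02-fold lower in the oeTNFRSF12A libraries. Its counts were 5430, 5664 and 5327 in oeControl replicates 1 to 3, and 910, 913 and 952 in oeTNFRSF12A replicates 1 to 3. On the CPM scale this is 303 ± 10.1 against 50.3 ± 0.92 (mean ± SD, n = 3 per group). The groups lie far apart, with the highest oeTNFRSF12A library 242 CPM below the lowest control. The log2 fold change was -2.59 (SE 0.04), and 2 of 12758 tested genes had a lower value. In RNA from whole cultures, fewer cells that express a gene and less RNA per cell cannot be told apart.

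NDRG4 and NDRG2 were lower by small amounts. NDRG4 had 371, 352 and 398 counts in the controls and 268, 261 and 344 in the oeTNFRSF12A libraries. This makes 20.7 ± 1.22 against 15.8 ± 2.38 CPM, a log2 fold change of -0.39 (SE 0.09). Its groups do not overlap, but oeTNFRSF12A replicate 3, at 18.5 CPM, lies closer to the lowest control, at 19.5 CPM, than to the other oeTNFRSF12A libraries, at 14.6 and 14.2 CPM, and without that library the log2 fold change was -0.52. NDRG2 had 233, 226 and 240 counts in the controls and 195, 181 and 195 in the oeTNFRSF12A libraries. This makes 12.9 ± 0.36 against 10.3 ± 0.42 CPM, a log2 fold change of -0.32 (SE 0.08). Its lowest control library was 1.86 CPM above its highest oeTNFRSF12A library.

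NDRG3 stood at the same level in both groups to within the spread of its replicates. It had 1120, 1149 and 1070 counts in the controls and 1087, 1135 and 1132 in the oeTNFRSF12A libraries. This makes 61.6 ± 2.38 against 60.7 ± 1.28 CPM. The groups overlap fully, since the controls hold both the highest and the lowest library. The log2 fold change was -0.02 (SE 0.04); it turned to 0.001 with library totals alone and to 0.005 without oeControl replicate 2.

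Of the 4 members, 3 had CPM ranges that did not overlap between the groups, beside 51.3% of all tested genes; since NDRG1 was chosen on this comparison, nothing is read from this count. An absolute log2 fold change as large as that of NDRG1 was reached by 0.165% of tested genes, as large as that of NDRG4 by 13.7%, of NDRG2 by 18.8% and of NDRG3 by 92.3%. The median over all tested genes was 0.003.

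**Figure D1:**
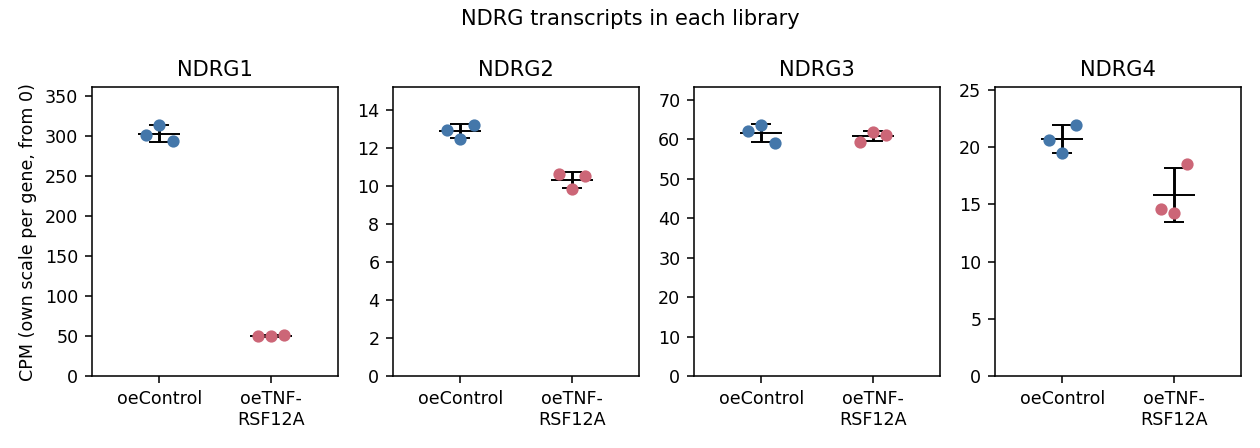
CPM of each NDRG gene (y axis, from 0, own scale per gene) in the 3 oeControl and 3 oeTNFRSF12A libraries (points), with the mean and SD over 3 libraries (bar and whiskers). NDRG1 drops from 303 to 50.3 CPM, NDRG2 and NDRG4 are a little lower without overlap, and the NDRG3 groups overlap.

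**Figure D2:**
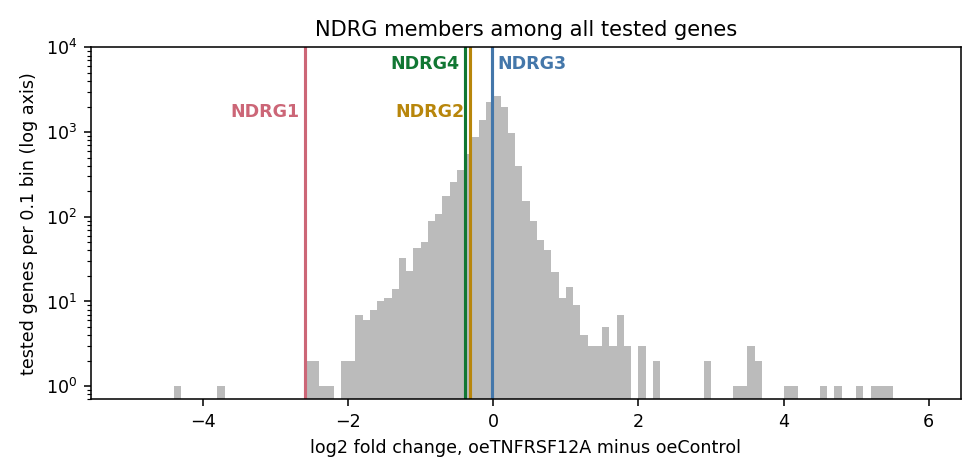
Number of tested genes (log axis) by log2 fold change of oeTNFRSF12A against oeControl in bins of 0.1, with the members as vertical lines. NDRG1 at -2.59 lies in the far lower tail, while NDRG2, NDRG3 and NDRG4 lie within the bulk of the 12758 genes.

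The replicates of a group were close for 3 of the members. The coefficient of variation of NDRG1 was 3.32% in the controls and 1.82% in the oeTNFRSF12A libraries, where counting alone gives 1.35% and 3.29%. It was 3.86% and 2.11% for NDRG3 and 2.79% and 4.03% for NDRG2, where counting gives 3.00% and 2.99%, and 6.55% and 7.25%. NDRG4 varied by 5.93% in the controls, against 5.17% from counting, but by 15.1% in the oeTNFRSF12A libraries, against 5.86%. The wide spread is again that of oeTNFRSF12A replicate 3, which over all genes also differed most from the other libraries of its group.

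Per length, NDRG1 was the leading family member in the controls and NDRG3 in the oeTNFRSF12A libraries. On the scale of CPM per kb of annotated exon, the control levels were 30.8 ± 1.02 for NDRG1, 19.0 ± 0.73 for NDRG3, 2.14 ± 0.13 for NDRG4 and 1.71 ± 0.05 for NDRG2. In the oeTNFRSF12A libraries they were 18.7 ± 0.39 for NDRG3, 5.12 ± 0.09 for NDRG1, 1.64 ± 0.25 for NDRG4 and 1.37 ± 0.06 for NDRG2. The level of NDRG1 was thus 1.63 ± 0.02 times that of NDRG3 in the controls and 0.274 ± 0.007 times in the oeTNFRSF12A libraries. With the longest transcript in place of all exons, these multiples were 3.68 ± 0.05 and 0.619 ± 0.015, so the order of the leading pair held under either length.

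NDRG4 and NDRG2 could not be ordered. The level of NDRG4 was 1.254 ± 0.040 times that of NDRG2 in the controls per kb of exon and 0.902 ± 0.03 times per kb of the longest transcript, and in the oeTNFRSF12A libraries the multiples were 1.19 ± 0.16 and 0.860 ± 0.12. Which isoforms these cells use is not given by gene counts. Among 12441 tested genes with 1 annotated length, NDRG1 ranked 1142 to 1259 by CPM per kb of exon in the control libraries and 6721 to 6834 in the oeTNFRSF12A libraries. NDRG3 ranked 2068 to 2274 and 2154 to 2265, while NDRG4 and NDRG2 ranked between 9327 and 10277 throughout.

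The family as a whole amounted to 53.6 ± 1.56 CPM per kb of exon in the controls and 26.8 ± 0.54 in the oeTNFRSF12A libraries. NDRG1 made up 57.5% ± 0.34 of it in the controls and 19.1% ± 0.22 in the oeTNFRSF12A libraries, and NDRG3 made up 35.3% ± 0.42 and 69.7% ± 1.04. The other 3 members together stood at 22.8 ± 0.56 and 21.7 ± 0.46 CPM per kb. Most of the difference in the family total therefore came from NDRG1. The total and the shares depend on the length used. Per kb of the longest transcript, NDRG1 stood at 76.0 CPM in the controls and 12.6 CPM in the oeTNFRSF12A libraries. NDRG3 stood at 20.7 and 20.4 CPM on that scale.

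**Figure D3:**
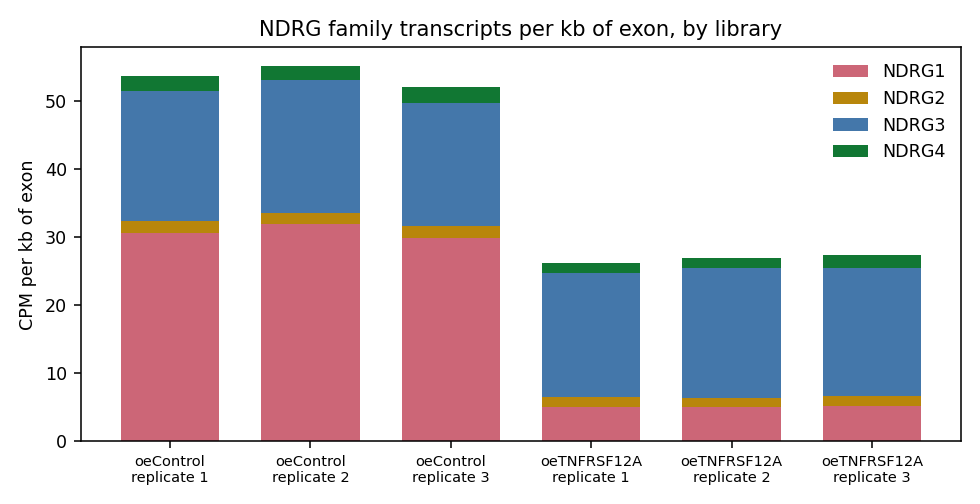
Level of the NDRG family in CPM per kb of annotated exon (y axis, from 0) in each of the 6 libraries, stacked by member. The total falls from 53.6 to 26.8 between the groups, the NDRG1 part shrinks from 30.8 to 5.12, and the NDRG3 part stays near 19.0 and 18.7.

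The genes whose profile over the 6 libraries was most like that of NDRG1 were PPFIA4, a liprin scaffold protein, ITGB3, the integrin beta-3 chain, SEC14L5, LOX, which cross-links collagen, and the IGF carrier gene IGFBP3. Likeness was the root mean square distance between log2 CPM profiles, each minus its own mean, among 11452 genes averaging 50 counts or more. The distances were 0.08 for PPFIA4, 0.11 for ITGB3, 0.21 for SEC14L5, 0.29 for LOX and 0.37 for IGFBP3. Their log2 fold changes were -2.49, -2.53, -2.24, -2.03 and -1.86. The likeness mostly reflects the size of the difference between the groups, and no other member had a fold change large enough for this comparison.

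**Figure D4:**
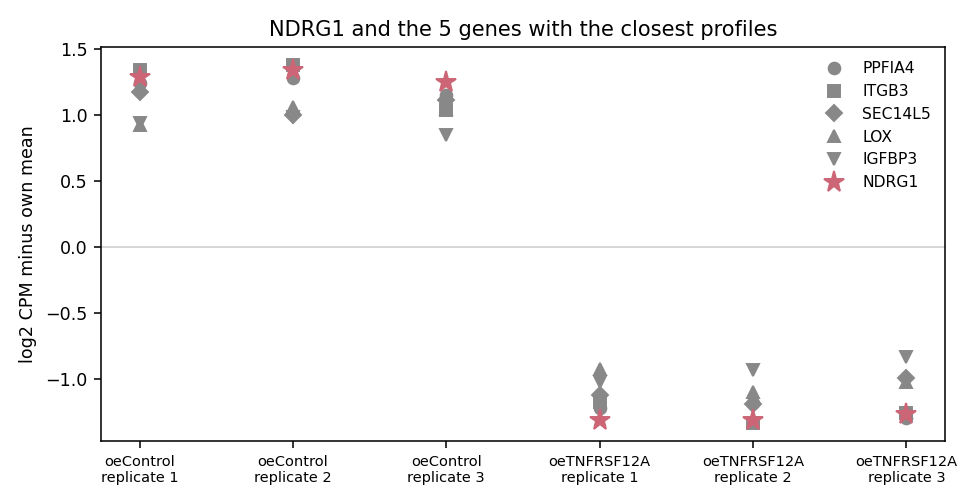
Log2 CPM minus the gene's own mean over the 6 libraries (y axis) for NDRG1 (stars) and the 5 genes with the closest profiles (grey symbols), by library. All 6 genes stand above their mean in the 3 oeControl libraries and below it in the 3 oeTNFRSF12A libraries, with log2 fold changes from -1.86 for IGFBP3 to -2.59 for NDRG1.

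Hypoxia-inducible genes, the class of genes to which NDRG1 belongs, were nearly all lower. Of 36 listed genes other than NDRG1, 33 could be tested, and 32 fell and 1 rose, beside 21.1% of all tested genes called lower and 21.2% called higher. The list's median log2 fold change was -0.66, against 0.003 over all genes, and its range from LOX (-2.03) to EGLN3 (1.80) does not reach the value of NDRG1. For 33 of the 33 the oeTNFRSF12A and control libraries were fully separated in CPM, beside 51.3% of all tested genes. VEGFA, the main angiogenic growth factor, fell by 1.297 on the log2 scale, ENO2, a glycolytic enolase, fell by 1.07 and LOX fell by 2.03, with adjusted p-values of 4.88e-18, 1.76e-17 and 5.79e-18 (edgeR quasi-likelihood test, Benjamini-Hochberg). The list was drawn up with earlier results of these data known, so its direction is no independent evidence.

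The transcripts of the hypoxia factors themselves moved in both directions. Of 9 tested HIF subunits and oxygen sensors 4 fell and 2 rose (66.7% called, beside 42.3% of all tested genes), with a list median of -0.05. HIF1A, the inducible subunit of the factor, fell, with 833 ± 10.7 CPM in the controls and 704 ± 15.5 CPM in the oeTNFRSF12A libraries (log2 fold change -0.24, SE 0.03; adjusted p = 2.54e-07 in edgeR's quasi-likelihood test), and its partner ARNT fell by 0.25 on the log2 scale (adjusted p = 2.09e-05). EPAS1, the HIF-2 alpha subunit, changed by -0.13 (adjusted p = 0.0234), a call that was lost without oeControl replicate 1 or 2 or oeTNFRSF12A replicate 2 (adjusted p of 0.0578 to 0.127), with library totals alone (0.0502) and with DESeq2 (0.0808). ARNT2 rose by 0.45. EGLN3, an oxygen-dependent hydroxylase that tags HIF for destruction and that hypoxia itself induces, rose by 1.80. EGLN1, the main oxygen-sensing hydroxylase, fell by 0.17, and VHL, which then captures HIF, stood at -0.01 without passing. HIF protein was not measured.

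The MYC network, which includes the N-myc gene MYCN after which the family is named, showed few differences. MYCN had 0 counts in every library. MYC was expressed at 79.5 ± 3.42 CPM in the controls and 82.9 ± 1.597 CPM in the oeTNFRSF12A libraries and did not pass (log2 fold change 0.06, SE 0.04; adjusted p = 0.237, edgeR quasi-likelihood test). Of 12 tested members 2 fell and 0 rose, beside 42.3% of all tested genes called in either direction, and the list median was 0.02. The 2 were MXI1, a MYC antagonist that is also in the hypoxia list (-0.58), and MLXIP (-0.35), a partner of MLX. MNT, the next in order of p, stood at -0.17 (adjusted p = 0.0509), was called in some alternatives (adjusted p of 0.0162 to 0.049), and without oeTNFRSF12A replicate 1 the list held 4 lower calls.

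Other reported regulators of NDRG1, listed together with the iron genes TFRC and FTH1, moved in both directions. Of 14 tested genes 8 fell and 3 rose (78.6% called, beside 42.3% of all tested genes), with a list median of -0.13. EGR1, an early response factor that activates NDRG1, averaged 9.66 ± 0.50 CPM in the controls and 5.61 ± 0.40 CPM in the oeTNFRSF12A libraries. Its log2 fold change was -0.78 with an SE of 0.10 (adjusted p = 1.35e-06, edgeR quasi-likelihood test). AHR, the aryl hydrocarbon receptor, rose by 0.43 and the transferrin receptor gene TFRC, which cells raise when short of iron, by 0.21.

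Among the kinases that phosphorylate NDRG1 and their regulators, the share of called genes was near that over all genes. Phosphorylation was not measured. Of 16 tested genes of the SGK, GSK3 and mTORC2 group 3 rose and 3 fell (37.5% called, beside 42.3% of all tested genes), with a list median of 0.05. SGK1 stood at 56.00 ± 0.31 CPM in the controls and 52.9 ± 0.77 CPM in the oeTNFRSF12A libraries (log2 fold change -0.08, SE 0.04; adjusted p = 0.136, edgeR quasi-likelihood test). GSK3B stood at 0.07 (adjusted p = 0.12) and was called with library totals alone and without oeTNFRSF12A replicate 3 (adjusted p = 0.0479 and 0.0203). MTOR rose by 0.31, MAPKAP1, a subunit of mTORC2, by 0.16 and SGK3 by 0.19, while PRR5L, which binds mTORC2, fell by 0.52 on the log2 scale. The call on SGK3 (adjusted p = 0.0206) was lost with DESeq2 and without oeControl replicate 1 or 3 or oeTNFRSF12A replicate 2 (adjusted p of 0.0628 to 0.127), and without oeTNFRSF12A replicate 3 the list held 5 higher calls.

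Partners through which NDRG1 is reported to act on trafficking and adhesion were called about as often as all genes. Of 13 tested genes 3 rose and 3 fell (46.2% called, beside 42.3% of all tested genes), with a list median of -0.01. CDH1 encodes the epithelial cadherin whose recycling NDRG1 is reported to aid. It averaged 17.05 ± 1.14 CPM in the controls and 9.0 ± 0.42 CPM in the oeTNFRSF12A libraries. Its log2 fold change was -0.92 with an SE of 0.08 (adjusted p = 3.06e-09, edgeR quasi-likelihood test). CD82, a tetraspanin known as a metastasis suppressor, averaged 8.61 ± 0.49 CPM in the controls and 16.9 ± 1.41 CPM in the oeTNFRSF12A libraries. Its log2 fold change was 0.97 with an SE of 0.09 (adjusted p = 2.45e-09 in the same test). CTNNB1, encoding beta-catenin, rose by 0.24. Protein levels and recycling were not measured.

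Around NDRG3, the lactate-binding member, both lactate dehydrogenase genes were lower while NDRG3 transcript was level. Lactate and NDRG3 protein were not measured. Of 13 tested genes of the lactate list 5 fell and 2 rose (53.8% called, beside 42.3% of all tested genes), with a list median of -0.05. LDHA and EGLN1, both called lower, are also in the hypoxia list. LDHA, which makes lactate from pyruvate, averaged 2059 ± 42.8 CPM in the controls and 1469.9 ± 41.8 CPM in the oeTNFRSF12A libraries. Its log2 fold change was -0.49 with an SE of 0.03 (adjusted p = 2.27e-12, edgeR quasi-likelihood test). LDHB, the other main subunit, was scarce and went from 2.27 ± 0.27 to 1.23 ± 0.22 CPM (-0.88, SE 0.21; adjusted p = 0.00187). MAPK3, encoding ERK1, fell by 0.41 and EGLN1, as above, fell by 0.17 on the log2 scale. The lactate exporter gene SLC16A3 stood at 0.36 (adjusted p = 0.213) with 157 counts in all. The 2 higher calls of the list, SLC16A1 and MAP2K1, numbered 0 without oeTNFRSF12A replicate 2 and 1 without oeControl replicate 2 or 3.

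For NDRG2, which is reported to act with the phosphatase PP2A and to stabilise the sodium pump subunit ATP1B1, 7 partner genes were tested, of which 3 fell and 2 rose (71.4% called, beside 42.3% of all tested genes), with a list median of 0.02. ATP1B1 fell by 0.23 on the log2 scale, and PPP2R1B, a scaffold subunit of PP2A, rose by 0.39 (adjusted p = 3.52e-06 and 3.47e-08, edgeR quasi-likelihood test). Leaving out oeControl replicate 1 or 2 or oeTNFRSF12A replicate 1 or 2 left 1 higher call in this list.

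For NDRG4, the genes of DNA methylation and other markers methylated in colorectal cancer were examined. Of 7 tested methylation enzymes 3 rose and 1 fell (57.1% called, beside 42.3% of all tested genes), with a list median of 0.04. DNMT1, the maintenance methyltransferase, averaged 170.1 ± 5.698 CPM in the controls and 209 ± 4.39 CPM in the oeTNFRSF12A libraries. Its log2 fold change was 0.30 with an SE of 0.03 (adjusted p = 1.24e-07, edgeR quasi-likelihood test). The DNMT1 cofactor UHRF1 rose by 0.21, and the demethylase gene TET3 by 0.26. The fall of DNMT3A (-0.20) was not called without oeControl replicate 2 or oeTNFRSF12A replicate 2 or 3. Of 14 tested colorectal methylation markers 6 fell and 3 rose (64.3% called, beside 42.3% of all tested genes), with a list median of -0.30, while SFRP2, CDKN2A, NEUROG1 and WIF1 had 0 counts in every library. BMP3, which is paired with NDRG4 in stool testing, averaged 10.7 ± 1.29 CPM in the controls and 5.36 ± 0.18 CPM in the oeTNFRSF12A libraries. Its log2 fold change was -0.99 with an SE of 0.11 (adjusted p = 7.96e-08 in the same test). SFRP1, a Wnt antagonist, fell by 1.31, the growth factor gene IGF2 fell by 1.83 and OSMR, a cytokine receptor gene, fell by 0.38 on the log2 scale. Methylation was not measured.

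**Figure D5:**
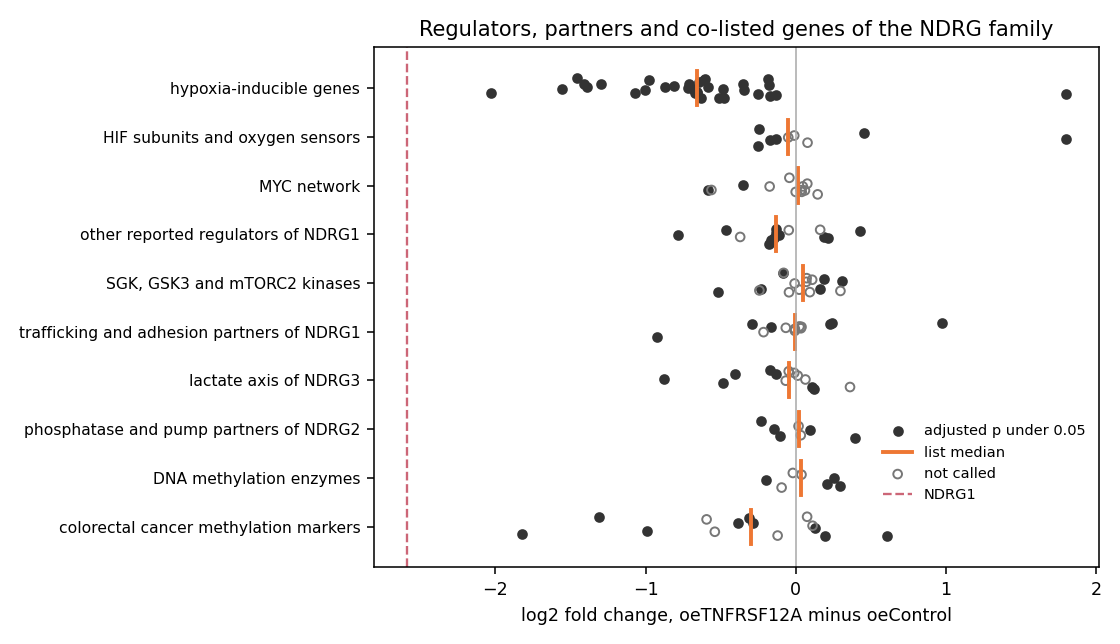
Log2 fold change of oeTNFRSF12A against oeControl (x axis) for each tested gene of the 10 lists around the NDRG family, filled where the adjusted p was under 0.05 and open otherwise, with the list median (orange bar) and the value of NDRG1 (dashed line, -2.59). Nearly all hypoxia-inducible genes lie below 0 (median -0.66), while the medians of the other lists lie between -0.30 and 0.05.

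The genes beside the members on their chromosomes moved in both directions. Of 24 protein-coding genes, the 3 nearest on each side of each member that do not overlap it, 12 could be tested, and 5 rose and 2 fell, beside 21.2% of all tested genes called higher and 21.1% called lower. ST3GAL1, a sialyltransferase gene 158 kb from NDRG1, fell by 0.23 on the log2 scale (adjusted p = 0.00647, edgeR quasi-likelihood test). Without oeControl replicate 1 its adjusted p was 0.0551 in the same test. ZFAT, 1181 kb from NDRG1, stood at 0.20 (adjusted p = 0.13, and 0.0363 without oeTNFRSF12A replicate 1). CCN4, the nearest gene to NDRG1 at 5.49 kb, had 24 counts over all libraries. All 3 tested neighbours of NDRG3, namely RAB5IF (0.25), the kinetochore gene DSN1 (0.25) and SOGA1 (0.24), rose, although NDRG3 itself was level. Beside NDRG4, the replication gene GINS3 rose by 0.53 and CNOT1, a scaffold of the deadenylase complex, by 0.12. CCDC113, 180 kb from NDRG4, fell by 0.37. SETD6, a lysine methyltransferase gene that lies 0.092 kb from NDRG4, stood at 0.05 (adjusted p = 0.604). Beside NDRG2, the flanking genes METTL17 (0.10) and ZNF219 (0.07) did not pass, although METTL17 was called without oeControl replicate 1 (adjusted p = 0.0303). In the RefSeq annotation NDRG2 also overlaps TPPP2, RNASE13, RNASE7, RNASE8 and ARHGEF40, of which ARHGEF40, a guanine nucleotide exchange factor gene, could be tested and did not pass (-0.03, adjusted p = 0.581).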

How the data were processed

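RNA was extracted with TRIzol and mRNA was isolated with oligo(dT) beads, per the labels' protocols. The values are expected counts per gene symbol, deposited by the authors as whole numbers; the tools listed in the submitters' processing notes are RSEM 1.3.1, Bowtie2 2.4.5 and HISAT2 2.2.1, with the build GRCh38 and no role for each, while annotation and strand setting are not stated there. Rounding left all values as they were. Of 19396 rows, 1 has no gene name and 0 counts, and was dropped. With R 4.3.3 and edgeR 4.0.16, 12758 genes passed filterByExpr (minimum count 10) and were fitted with TMM factors (0.988 to 1.01) in a robust quasi-likelihood test of oeTNFRSF12A against oeControl, with Benjamini-Hochberg adjustment over all of them; a gene was called, and is said to have risen or fallen, at an adjusted p under 0.05. The members were part of this fit, but no p or call is given for them, since they were chosen on this comparison. Their lengths come from GENCODE release 29 and their promoter windows and neighbours from RefSeq on GRCh38.p14.

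The members, the 10 lists around them and the 6 lists of cell type markers were chosen with earlier results of these data known. Of 143 distinct genes in the 10 lists, 130 could be tested. A gene in several lists, such as LDHA, EGLN1, EGLN3 or KDM3A, is counted in each of them. Named were the 3 genes with the lowest p in each of the 10 lists, a fixed set of well-known regulators and partners, 5 genes most like any member that changed by at least 1 on the log2 scale, and the 3 nearest genes on each side; other genes were named after their values were seen, and some genes of these lists are not reported here.

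No pair of libraries agreed within sampling noise (chi-square per gene 1.61 to 3.35 within groups, 17.7 to 19.8 between), so all 6 were counted. On simulated counts for the 12758 genes, 37 of 50 genes changed by 1.25-fold, 45 of 50 by 1.5-fold, 48 of 50 by 2-fold and 50 of 50 by 4-fold were recovered, with 15 false calls. The changed genes of the simulation were drawn above a floor on mean count, so recovery of genes with few counts was not measured. The other 12558 genes were left unchanged there, whereas 42.3% of tested genes were called in the data. Alternatives were other scalings and filters, DESeq2 1.42.0, the replicate number as a block, and each library left out.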

Additional observations from a re-analysis of the deposited data

How the results depend on the processing

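The log2 fold change of NDRG1 stayed between -2.61 and -2.56 under all alternatives, that of NDRG2 between -0.34 and -0.28, that of NDRG4 between -0.52 and -0.32, and that of NDRG3 between -0.05 and 0.005. The number of genes called higher was 2174 to 2640 and of genes called lower 2259 to 2640 with 1 library left out. Counts of list members called moved as follows. The lower calls of the MYC network (2) became 4 with upper-quartile factors or no filter and 2 to 4 with 1 library left out. The higher calls of the SGK, GSK3 and mTORC2 kinases (3) became 7 with library totals alone, 5 with no filter and 2 to 5 with 1 library left out. The higher calls of the lactate list (2) became 1 with DESeq2 and 0 to 2 with 1 library left out. Those of the NDRG2 partners (2) became 1 with upper-quartile factors or DESeq2 and 1 to 2 with 1 library left out. The lower call of the methylation enzymes (1) became 0 with library totals alone or DESeq2 and 0 to 1 with 1 library left out. The cause of these moves was not tested. Per kb of the longest transcript, the control levels were 76.0 CPM for NDRG1, 4.47 for NDRG2, 20.7 for NDRG3 and 4.04 for NDRG4, since the exon lengths of these genes include many isoforms.

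Of 63 other genes examined one by one, 51 kept their direction and their side of the threshold under every alternative that gave a value (LDHB and SLC16A3 give none at a mean of at least 50 counts); SLC38A7, beside NDRG4 and not called (0.04), ranged from -0.0098 (without oeTNFRSF12A replicate 3) to 0.070 with 1 library left out. VHL, also not called, turned from -0.01 to 0.0095 with library totals alone and ranged from -0.044 to 0.019 with 1 library left out. Same-numbered replicates did not deviate together over all genes (correlations of -0.02, 0.02 and 0.04). A weak pairing by number would look the same, so whether the samples were paired remains unknown. With the replicate number as a block, NDRG1 stood at -2.59, NDRG2 at -0.32, NDRG3 at -0.02 and NDRG4 at -0.39, and 2711 genes were called higher and 2685 lower, against 2709 and 2693 without it.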
